A study of Mus musculus with 16 samples.

Results

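Adding an antibody against PD-L1 to exercise was examined by setting 4 libraries of exercise with anti-PDL1, called the combination here, against 4 libraries of exercise alone. The title of the series speaks of PD-1 blockade while the sample labels name anti-PDL1; the wording of the labels is followed here. The 8 libraries were chosen by their titles, out of 16 in the series. All were RNA-seq libraries of tumours that grew under the skin of mice after grafting of MC38, a colon carcinoma line of mouse origin. The combination tumours had exercise and the antibody, and the exercise tumours had exercise without the antibody. The remaining 8 libraries, anti-PDL1 without exercise and control, served to set the same antibody difference beside the first without exercise. Every group carried the MC38 graft. The labels give no mouse strain, sex, age, antibody clone, dose, schedule or kind of exercise, and do not say whether each library stands for its own animal. The p-values therefore measure only the spread between these libraries, which may be technical.

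PD-L1 is a surface protein of tumour and myeloid cells that engages PD-1 on T cells and restrains them. Antibodies that block it can release T cells that recognise peptides shown on MHC class I molecules. In that route the immunoproteasome cuts proteins into peptides, the TAP transporter carries the peptides into the endoplasmic reticulum, and heavy chains with beta-2 microglobulin take them to the surface. Interferon gamma, made by activated T and NK cells, raises the expression of most genes of this route in mouse and human cells.

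Among the 10 genes with the smallest p-values of those higher in the combination, 6 are genes of this route or its pseudogenes on mouse chromosome 17, so the promoter windows of 3 heavy-chain genes and of the immunoproteasome gene Psmb9 are shown. Each window runs 5′ to 3′ on the strand of its gene, with 250 bases before and 50 bases after a transcript start tabulated in RefSeq for build GRCm38.p6. For H2-D1, H2-T22 and Psmb9 this start is the 5′ end of the annotated gene. H2-K1 has 2 tabulated windows, and the start used, 34000347, lies inside the annotated gene, whose 5′ end is at 34000619, so its distances are from that internal start only. The windows are chr17:34000298-34000597 on the minus strand for H2-K1, chr17:35262844-35263143 on the plus strand for H2-D1, chr17:36042693-36042992 on the minus strand for H2-T22 and chr17:34187281-34187580 on the minus strand for Psmb9. Capitals mark matches, on either strand, to 3 of the 4 motifs searched: AGTTTC followed by 2 free bases and TT, GGGGA followed by 1 free base and TCCCC, and GAAA followed by 2 free bases and GAAA.
H2-K1: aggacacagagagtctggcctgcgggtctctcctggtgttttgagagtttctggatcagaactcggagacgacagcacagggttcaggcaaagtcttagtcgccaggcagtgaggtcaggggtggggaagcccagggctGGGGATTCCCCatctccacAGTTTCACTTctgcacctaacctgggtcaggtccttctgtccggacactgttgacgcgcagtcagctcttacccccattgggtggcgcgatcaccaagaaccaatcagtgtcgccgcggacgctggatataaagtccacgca
H2-D1: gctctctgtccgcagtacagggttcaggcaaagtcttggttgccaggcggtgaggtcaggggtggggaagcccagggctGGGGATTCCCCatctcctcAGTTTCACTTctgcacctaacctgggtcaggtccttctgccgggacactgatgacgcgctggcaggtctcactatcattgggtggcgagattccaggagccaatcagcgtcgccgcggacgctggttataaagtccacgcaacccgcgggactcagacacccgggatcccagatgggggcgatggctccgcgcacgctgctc
H2-T22: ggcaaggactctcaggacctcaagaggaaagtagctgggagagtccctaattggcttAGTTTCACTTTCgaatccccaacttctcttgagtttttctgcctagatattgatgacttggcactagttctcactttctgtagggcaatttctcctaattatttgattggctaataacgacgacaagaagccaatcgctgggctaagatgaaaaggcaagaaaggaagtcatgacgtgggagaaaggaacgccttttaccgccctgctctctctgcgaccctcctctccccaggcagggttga
Psmb9: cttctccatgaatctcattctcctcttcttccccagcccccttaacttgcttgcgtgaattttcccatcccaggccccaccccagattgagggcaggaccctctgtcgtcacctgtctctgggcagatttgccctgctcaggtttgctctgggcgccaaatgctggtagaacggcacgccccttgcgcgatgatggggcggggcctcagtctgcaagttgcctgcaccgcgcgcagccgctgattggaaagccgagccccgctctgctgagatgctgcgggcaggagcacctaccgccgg

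The first motif is the form of the interferon-stimulated response element seen in class I promoters, and its spelling was chosen after these windows had been read. It stood at -92 in H2-K1 (92 bases before the tabulated start), at -152 in H2-D1 and at -193 in H2-T22, and occurred in 564 of 32851 RefSeq windows of 300 bases (1.72%). The second, the palindromic kappa B site, stood at -111 in H2-K1 and at -171 in H2-D1, and occurred in 16 windows (0.0487%). The third, the more general form of the interferon element, was found in 3.44% of windows, H2-T22 among them at -191, where it overlaps the first motif. The fourth, the gamma-activated site (TTC, 3 free bases, GAA), was found in 8.3% of windows and in none of these 4 windows, and Psmb9 held none of the 4 spellings. The starts of Psmb9 (34187330) and Tap1 (34187556) lie 226 bases apart on opposite strands, and their windows share 275 bases.

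The deposited values were FPKM, which express fragments relative to transcript length and to the size of the library, for 18480 entries. They hold no read counts, so the depth behind each value is unknown. Values summed to between 478672 and 525928 FPKM in the 8 libraries, and 11293 to 11577 genes reached 1 FPKM. The colon epithelial markers Epcam and Krt8 were near 0, with Epcam at 0.02 to 0.12 FPKM in combination tumours and 0.05 to 0.1 FPKM in exercise tumours, and Krt8 at 0 to 0.2 FPKM in combination tumours and 0 to 0.03 FPKM in exercise tumours. Exercise library 1 stood apart from its group: its correlations with the other exercise libraries were 0.974 to 0.977, while it reached 0.982 with combination library 3. The other exercise libraries correlated with each other at up to 0.989. It was not alone in this. Combination library 1 reached at most 0.978 within its group and 0.987 with exercise library 3. Combination libraries 3 and 4 reached 0.980 and 0.979 within their group, and 0.982 and 0.980 with an exercise library. The counts of genes past the threshold depended most on exercise library 1 and are given with and without it. So are the medians of gene lists that change sign or move by more than 1.5 times. Exercise library 1 was singled out by these same data. Adjusted p-values from fits without it are therefore no independent test and may be too small.

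No gene passed the threshold for the combination against exercise when all libraries were used. Of 11868 genes tested on log2(FPKM + 1) by limma, 0 (0%) had a Benjamini-Hochberg adjusted p below 0.05. The smallest adjusted p was 0.0561, shared by Psmb9 and Ctxn1, and 7 genes had one below 0.1. At an unadjusted p below 0.05, 795 genes (6.7%) were higher and 823 (6.93%) were lower in the combination. The 2 groups of 4 did not overlap for 381 genes that were higher (3.21%) and 443 that were lower (3.73%). The median log2 fold change over all genes was -0.02. Without exercise library 1, 184 genes (1.55%) passed, 141 of them higher (1.19%) and 43 lower (0.362%). With library weights, which count a deviating library less, 222 genes passed.

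**Figure D1:**
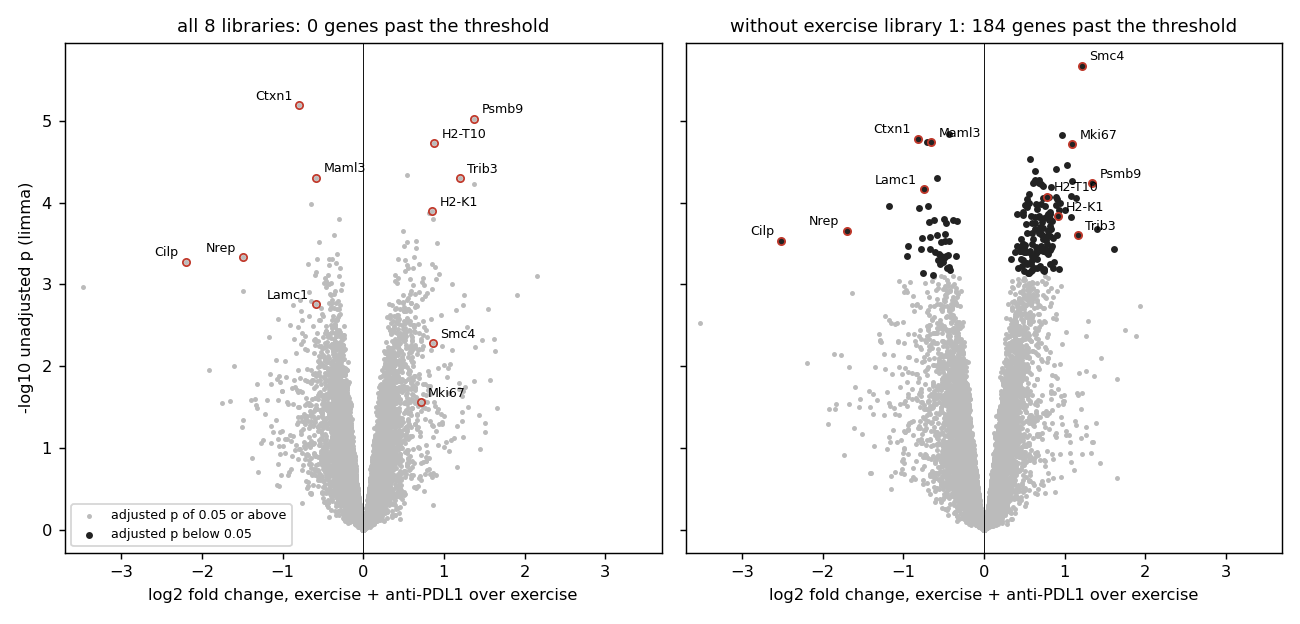
Log2 fold change of the combination over exercise against -log10 of limma's unadjusted p for 11868 genes, with all 8 libraries on the left and without exercise library 1 on the right. Grey points did not pass the adjusted threshold and black points did, 0 on the left and 184 on the right; red rings mark genes described in the text.

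Most chains of MHC class I separated the groups, with every combination library above every exercise library in 8 of the 11, beside 3.21% of all genes. For the immunoproteasome and peptide loading this held in 5 of 14 genes. With all libraries 0 genes of either list passed the threshold. Psmb9 encodes an inducible catalytic subunit of the immunoproteasome (chromosome 17, 34182030 to 34187330). Its FPKM values were 52.05, 46, 32.71 and 47.36 in the combination tumours, against 14.99, 13.68, 23.82 and 14.27 in the exercise tumours. All 4 combination libraries lay above all 4 exercise libraries, with exercise library 3 the highest of its group. The means were 44.5 ± 8.3 FPKM in the combination and 16.7 ± 4.8 FPKM in exercise (SD, n = 4 each). The log2 fold change was 1.38 ± 0.21 (SE) with an adjusted p of 0.0561 by limma. Psmb9 rose by 1.34 when exercise library 1 was left out, with an adjusted p of 0.029.

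Tap1, a subunit of the peptide transporter and the neighbour of Psmb9, had 51.43, 46.91, 36.28 and 44.14 FPKM in the combination, against 20.32, 21.96, 32.77 and 19.53 FPKM in exercise. Again the groups did not overlap, and combination library 3 and exercise library 3 lay closest to each other. The log2 fold change of Tap1 was 0.91 ± 0.20 with an adjusted p of 0.188 by limma. Psmb8, another inducible proteasome subunit, had 82.77, 53.94, 47.59 and 71.11 FPKM in the combination, against 27.03, 34.59, 43.18 and 39.11 FPKM in exercise. Its log2 fold change was 0.80 ± 0.20 (adjusted p 0.197 by limma), and that of the second transporter gene Tap2 was 0.63 ± 0.18 (adjusted p 0.212). Of 14 genes of the immunoproteasome and peptide loading, 13 had a fold change above 0, with a median of 0.29. In 6 of the 14 the unadjusted p was below 0.05, and in 5 the groups did not overlap, all higher. Over all genes these shares were 6.7% and 3.21%.

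The classical heavy chains H2-K1 and H2-D1, which show peptides to CD8 T cells, were among the most abundant transcripts of the tumours. H2-K1 (chromosome 17, 33996012 to 34000619) had 962.75, 1384.53, 1099.43 and 1088.16 FPKM in the combination, against 717.03, 643.32, 726.37 and 443.74 FPKM in exercise. H2-D1 (chromosome 17, 35263094 to 35267497) had 1101.07, 1340.45, 1024.6 and 1096.4 FPKM in the combination, against 808.38, 733.68, 835.94 and 547.98 FPKM in exercise. In both genes combination library 2 was the highest and exercise library 4 the lowest of the 8, and the groups did not overlap. Their log2 fold changes were 0.85 ± 0.17 for H2-K1 and 0.65 ± 0.14 for H2-D1, with adjusted p-values of 0.159 and 0.188 by limma. Both rose without exercise library 1, by 0.92 (adjusted p 0.029) and 0.71 (adjusted p 0.0349).

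The non-classical chain gene H2-T22, whose product is known in mice as a ligand of gamma-delta T cells, had 83.28, 92.84, 61.75 and 83.96 FPKM in the combination, against 37.67, 48.11, 54.94 and 39.82 FPKM in exercise. H2-T10 (chromosome 17, 36115871 to 36121444), annotated as a transcribed pseudogene, was expressed at a far lower level, with 4.07, 5.38, 4.01 and 4.75 FPKM in the combination, against 1.43, 2.06, 2.13 and 2.5 FPKM in exercise. The groups did not overlap in either gene, with log2 fold changes of 0.82 ± 0.16 and 0.88 ± 0.15 and adjusted p-values of 0.159 and 0.0742 by limma. H2-T-ps, a further class I entry of low level, averaged 4.02 ± 0.75 FPKM in the combination and 1.78 ± 0.62 FPKM in exercise (SD, n = 4 each; adjusted p 0.159 by limma). B2m, the light chain shared by these molecules, had 1561.96, 1381.67, 1279.1 and 1432.37 FPKM in the combination, against 919.25, 881.45, 1129.57 and 842.84 FPKM in exercise. Its log2 fold change was 0.59 ± 0.18 with an adjusted p of 0.219 by limma. All 11 class I chains were above 0, with a median of 0.59, beside -0.02 for all genes. The groups did not overlap in 8 of them, beside a share of 3.21% over all genes. In the fit without exercise library 1 the median was 0.58. There 4 of the 11 rose past the threshold, beside 1.19% of all genes. The class I genes are similar in sequence, and how the authors divided reads among them is not given in the sources used here, so the values of single members are uncertain.

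**Figure D2:**
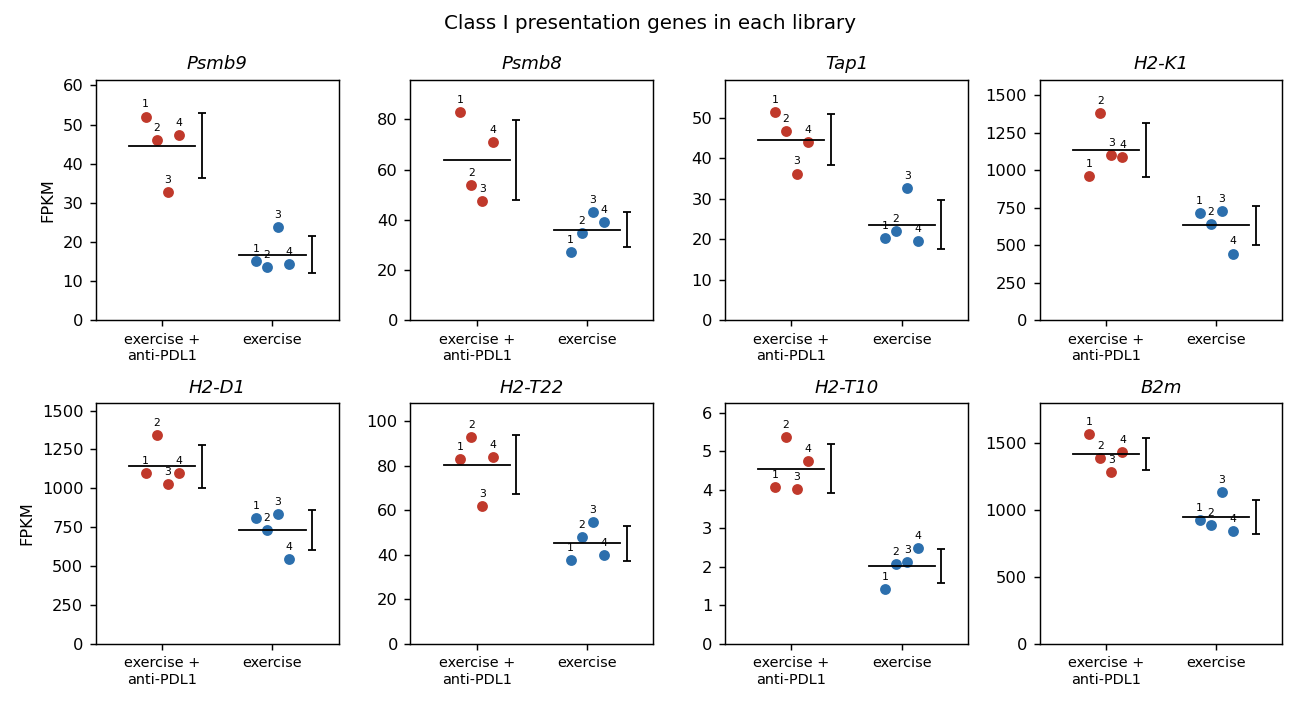
FPKM of 8 class I presentation genes in each library, with the 4 combination tumours left of the 4 exercise tumours; numbers are replicate numbers, horizontal lines are means and bars to the right are SD. In all 8 genes every combination library lies above every exercise library, and exercise library 3 is the highest of its group for Psmb9 (23.82 FPKM) and Tap1 (32.77 FPKM).

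Genes that interferon gamma is known to induce were higher on average but differed widely between tumours of a group. Their mean log2(FPKM + 1) per library ran from 3.49 to 4.82 in the combination and from 2.39 to 3.93 in exercise, while that of the class I chains ran from 5.41 to 5.65 in the combination and from 4.73 to 5.16 in exercise. All 24 tested of 26 had a fold change above 0, with a median of 0.91. In 14 the unadjusted p was below 0.05, and in 2 the groups did not overlap. Over all genes the shares with higher values were 6.7% and 3.21%. The guanylate-binding protein gene Gbp2, a host defence GTPase, had 114.42, 64.69, 44.93 and 133.54 FPKM in the combination, against 14.57, 23.31, 53.73 and 37.49 FPKM in exercise. Combination library 3 lay below exercise library 3, and the log2 fold change was 1.47 ± 0.44 with an adjusted p of 0.215 by limma. The genes without overlap were Gbp7, another GTPase of this family, and Serpina3g, a serine protease inhibitor. Gbp7 had 23.31, 11.18, 9.28 and 29.42 FPKM in the combination, against 3.76, 4.07, 8.09 and 8.16 FPKM in exercise, a difference of 1.38 ± 0.43 (adjusted p 0.219 by limma). Serpina3g averaged 11.3 ± 4.6 FPKM in the combination and 5.32 ± 1.5 FPKM in exercise (SD, n = 4 each), with an adjusted p of 0.251 by limma.

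The transcription factor gene Irf1 averaged 55.7 ± 17 FPKM in the combination and 38.7 ± 6.2 FPKM in exercise (SD, n = 4 each; adjusted p 0.36 by limma). Over the whole interferon gamma list, the median fold change was 0.62 without exercise library 1, against 0.91 with it, and 0 of the 24 passed in either fit. The 23 tested genes of the type I interferon response, most of them antiviral effectors, had a median of 0.29 with all libraries and 0.02 without exercise library 1. In no member of that list did the groups separate, and none had an unadjusted p below 0.05. Ifit1, which binds foreign RNA, had 22.15, 9.61, 5.33 and 10.68 FPKM in the combination, against 2.08, 3.26, 8.42 and 12.34 FPKM in exercise. Bst2, which tethers budding viruses to the cell surface, averaged 125 ± 51 FPKM in the combination and 93.2 ± 35 FPKM in exercise (SD, n = 4 each). Its difference of 0.43 ± 0.33 had an adjusted p of 0.585 by limma.

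**Figure D3:**
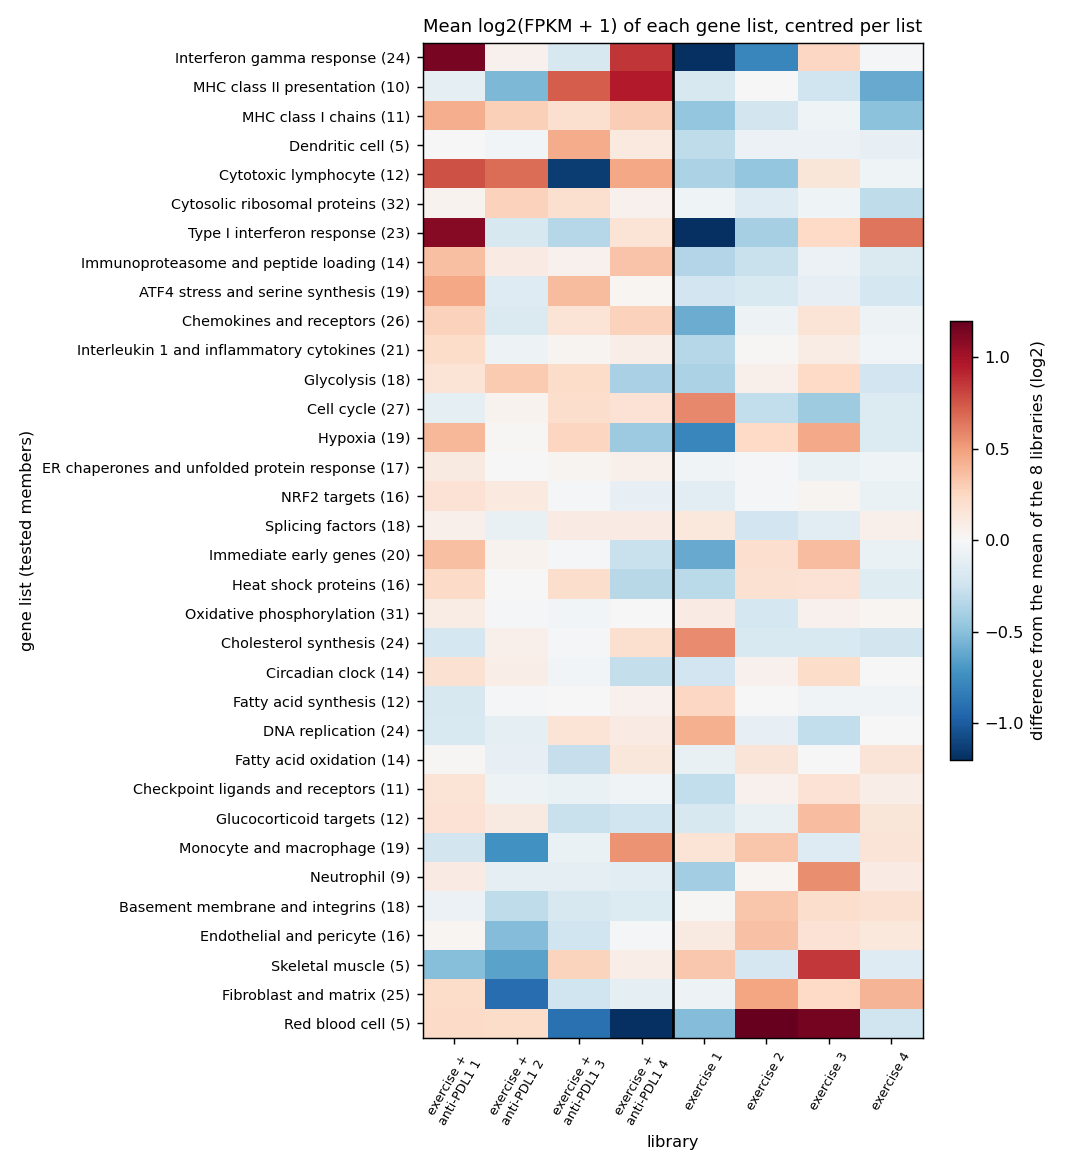
Mean log2(FPKM + 1) of the tested members of each gene list in the 8 libraries, as the difference from the mean of the list over those libraries; combination libraries are left of the black line, exercise libraries right of it, and lists are ordered by median fold change. The class I chains are high in all 4 combination libraries, the interferon lists differ between libraries of a group, and exercise library 1 is high for the cell cycle and cholesterol synthesis lists.

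MHC class II presentation, the route by which myeloid and B cells show peptides to CD4 T cells, had a median of 0.61 over 10 tested genes, 9 of them above 0. Their mean log2(FPKM + 1) was 4.71, 4.28, 5.55 and 5.78 in combination libraries 1 to 4, against 4.63, 4.82, 4.58 and 4.22 in exercise. Only combination libraries 3 and 4 lay above all exercise libraries. In 1 of the 10 the unadjusted p was below 0.05, and in 1 the groups did not overlap, both higher. Over all genes these shares were 6.7% and 3.21%. The groups did not overlap for H2-DMb1, a chain of the peptide exchanger H2-DM, which averaged 42.7 ± 3.8 FPKM in the combination and 27.6 ± 3.1 FPKM in exercise (SD, n = 4 each). Its log2 fold change was 0.62 ± 0.15 with an adjusted p of 0.189 by limma. Ciita, the master activator of class II genes, had 0.93, 0.63, 2.15 and 2.49 FPKM in the combination, against 0.63, 0.93, 0.95 and 0.29 FPKM in exercise. Its higher values came from combination libraries 3 and 4, the libraries in which H2-DMa was also highest, at 19.57 and 25.66 FPKM.

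Transcripts of T cells and of B and plasma cells were scarce in these tumours, and those of cytotoxic lymphocytes less so. The T cell genes summed to 19.54 to 35.89 FPKM in the combination and 23.75 to 28.66 FPKM in exercise. Thy1, a member of that list, made up a large part of these sums. It had 20.91, 7.83, 9.8 and 16.1 FPKM in the combination, against 18.82, 18.18, 14.69 and 21.28 FPKM in exercise. Thy1 was below 0, unlike the other tested T cell genes, so the overlap of the sums does not describe those genes. The cytotoxic lymphocyte genes summed to 44.3 to 392.19 FPKM in the combination and 99.56 to 208.01 FPKM in exercise. Most of each of these sums came from members other than Gzmb, Prf1 and Nkg7, which are described below. Of 20 T cell genes 4 were tested, of 18 cytotoxic lymphocyte genes 12, and of 10 B and plasma cell genes 0. The median of the 12 cytotoxic genes was 0.39, and 0.25 without exercise library 1. In bulk tumour RNA, fewer cells of a type and less RNA per cell cannot be told apart. Gzmb, the granzyme with which T and NK cells kill, had 13.34, 11.07, 2.84 and 10.08 FPKM in the combination, against 3.42, 2.93, 6.05 and 4.61 FPKM in exercise. Combination library 3 was the lowest of the 8 while the other 3 combination libraries were the highest, and the log2 fold change was 0.86 ± 0.41 with an adjusted p of 0.372 by limma. Perforin, Prf1, which opens the membrane for granzymes, had 7.4, 8.61, 1.24 and 4.4 FPKM in the combination, against 2.07, 2.16, 5.25 and 4.02 FPKM in exercise. Combination library 3 was again the lowest of the 8, and the adjusted p was 0.732 by limma. Nkg7, a granule protein of the same cells, had 3.26, 3.12, 1.67 and 4.11 FPKM in the combination, against 1.92, 1.58, 1.85 and 1.37 FPKM in exercise, with an adjusted p of 0.33 by limma.

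Cd3g, a chain of the T cell receptor complex, was the T cell gene tested whose groups did not overlap, with 1.4, 0.95, 1.26 and 1.79 FPKM in the combination, against 0.75, 0.45, 0.65 and 0.36 FPKM in exercise. Its adjusted p was 0.338 by limma. Cd8a, a chain of the coreceptor of CD8 T cells, was below the filter of 1 FPKM in 4 libraries and was not tested. Its values were 1.06, 0.87, 0.77 and 1.31 FPKM in the combination, against 0.51, 0.44, 0.44 and 0.4 FPKM in exercise, with no overlap. Cd8b1, the other chain of that coreceptor, had 0.82, 0.98, 0.98 and 0.99 FPKM in the combination, against 0.72, 0.42, 0.67 and 0.35 FPKM in exercise. The pattern differed for Cd3e, another chain of the receptor complex, and Cd4, the coreceptor of helper T cells. Cd3e ranged over 0.14 to 0.65 FPKM in the combination and 0.28 to 0.35 FPKM in exercise, and Cd4 over 0.18 to 0.93 FPKM in the combination and 0.42 to 0.52 FPKM in exercise. Pdcd1, which encodes PD-1, ranged over 0.16 to 0.49 FPKM in the combination and 0.16 to 0.39 FPKM in exercise. Ifng itself stood at 0.5, 0.25, 0.21 and 0.39 FPKM in the combination, against 0, 0, 0.38 and 0.09 FPKM in exercise. Combination library 3, low for granzyme and perforin, was not the lowest of its group for Cd3g.

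Cd274, which encodes PD-L1, had 10.1, 5.86, 4.64 and 6.95 FPKM in the combination, against 1.69, 3.27, 6.33 and 5.34 FPKM in exercise. The groups overlapped, and the log2 fold change of 0.67 ± 0.30 (adjusted p 0.339 by limma) was 0.39 ± 0.27 without exercise library 1. An antibody acts on the protein, so this RNA does not check the treatment labels.

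Chemokines and general myeloid markers pointed in different directions. Ccl6, a chemokine of mouse myeloid cells, had 118.85, 69.33, 78.15 and 69.81 FPKM in the combination, against 21.54, 28.69, 38.94 and 22.82 FPKM in exercise, with no overlap. Its log2 fold change was 1.55 ± 0.41 with an adjusted p of 0.199 by limma. Ccl7, which attracts monocytes, differed by 1.15 ± 0.31 (adjusted p 0.199 by limma), and Ccl5, which attracts T cells, averaged 10.6 ± 1.5 FPKM in the combination and 7.04 ± 0.74 FPKM in exercise (SD, n = 4 each; adjusted p 0.326). The CXCR3 ligand Cxcl9, an attractant of activated T cells, had 21.55, 9.12, 10.75 and 38.35 FPKM in the combination, against 4.55, 5.53, 10.7 and 7.44 FPKM in exercise. Its groups overlapped at combination library 2, and the adjusted p was 0.36 by limma. Cxcl10, another ligand of CXCR3, had 99.79, 38.25, 37.35 and 67.37 FPKM in the combination, against 10.07, 23.53, 59.45 and 61.93 FPKM in exercise (adjusted p 0.585). Among 26 tested chemokines and receptors the median was 0.19, and 0.09 without exercise library 1. Of them 4 had an unadjusted p below 0.05, all higher, beside a share of 6.7% over all genes.

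Arg1, the arginase of immunosuppressive myeloid cells, had 132.12, 125.6, 192.48 and 126.58 FPKM in the combination, against 51.55, 76.34, 71.01 and 88.54 FPKM in exercise. The groups did not overlap, and the log2 fold change was 1.00 ± 0.33 with an adjusted p of 0.247 by limma. Nos2, the inducible nitric oxide synthase of activated macrophages, had 6.24, 5.68, 4.15 and 2.98 FPKM in the combination, against 0.61, 2, 6.65 and 2.09 FPKM in exercise, with an adjusted p of 0.512 by limma. General markers of monocytes and macrophages did not share this direction. Over 19 tested members of that list the median was -0.23, 14 were below 0, and 0 had an unadjusted p below 0.05. Apoe, a lipid carrier abundant in macrophages, had 168.22, 85.8, 130.6 and 409.51 FPKM in the combination, against 265.57, 463.94, 271.47 and 349.43 FPKM in exercise. The summed FPKM of the macrophage list ranged from 561.7 to 1782.74 in the combination and from 902.85 to 1556.74 in exercise, and its part in the Arg1 and chemokine values was not tested. Adgre1, the macrophage marker F4/80, averaged 5.11 ± 2.7 FPKM in the combination and 7.65 ± 2.6 FPKM in exercise (SD, n = 4 each; adjusted p 0.563 by limma). Over 9 tested neutrophil genes the median was -0.25, and S100a8, a calcium-binding protein of neutrophils, stayed at 0.57 to 1.85 FPKM in the combination and 0.14 to 3.84 FPKM in exercise.

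Outside the immune genes, the smallest p-values among genes with higher values belonged to Trib3, Angptl6 and Ulk3. Trib3 (chromosome 2, 152337425 to 152344060), a pseudokinase induced by the stress factor ATF4, had 53.95, 33.87, 49.72 and 35.58 FPKM in the combination, against 16.97, 18.21, 20.99 and 16.09 FPKM in exercise. The lowest combination library was well above the highest exercise library, and the log2 fold change was 1.19 ± 0.22 with an adjusted p of 0.0995 by limma. Trib3 rose by 1.17 without exercise library 1, with an adjusted p of 0.032. In the tumours without exercise, Trib3 averaged 47.9 ± 13 FPKM with the antibody and 36.5 ± 9.5 FPKM in control (SD, n = 4 each), so the exercise tumours held the lowest values of the 4 groups.

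Of 19 genes of the ATF4 response and serine synthesis, 17 were above 0, with a median of 0.27. In 6 the unadjusted p was below 0.05, all higher, beside a share of 6.7% over all genes. The groups did not overlap in 2 members, beside a share of 3.21% over all genes. These were Trib3 and Atf4, the transcription factor itself, which is named after its values were seen. Ddit3, the stress transcription factor CHOP, had 69.46, 53.56, 52.93 and 38.42 FPKM in the combination, against 22.21, 32.31, 40.94 and 32.62 FPKM in exercise. The groups overlapped at combination library 4, and the log2 fold change was 0.73 ± 0.23 with an adjusted p of 0.219 by limma. Sesn2, a stress-induced inhibitor of mTORC1 signalling, averaged 6.47 ± 1.6 FPKM in the combination and 3.77 ± 0.97 FPKM in exercise (SD, n = 4 each; adjusted p 0.265 by limma).

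Angptl6 (chromosome 9, 20873808 to 20879822), a secreted angiopoietin-like protein, had 11.99, 10.29, 11.65 and 8.93 FPKM in the combination, against 3.7, 3.75, 4.14 and 2.55 FPKM in exercise. Ulk3 (chromosome 9, 57589141 to 57596233), a kinase of the autophagy kinase family, had 12.4, 13.72, 11.99 and 14.85 FPKM in the combination, against 9.16, 8.81, 8.5 and 8.53 FPKM in exercise. Both separated the groups without overlap, by 1.37 ± 0.25 and 0.54 ± 0.10 on the log2 scale, each with an adjusted p of 0.0995 by limma. Both rose past the threshold without exercise library 1, with adjusted p-values of 0.0311 for Angptl6 and 0.029 for Ulk3. Aftph, a clathrin accessory protein, averaged 13.1 ± 0.92 FPKM in the combination and 9.11 ± 1.3 FPKM in exercise (SD, n = 4 each; adjusted p 0.188 by limma).

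Cytosolic ribosomal protein genes, which encode the structural proteins of the ribosome, were slightly higher nearly throughout. Of 32 genes tested, 31 were above 0, with a median log2 fold change of 0.30 and a range of -0.11 to 0.51. In 22 the unadjusted p was below 0.05, and in 9 the groups did not overlap, all higher. The shares over all genes in this direction were 6.7% and 3.21%. Rpl7, of the large subunit, had 1506.11, 1495.19, 1661.38 and 1282.18 FPKM in the combination, against 1206.13, 904.14, 1016.6 and 1056.74 FPKM in exercise. Its difference was 0.51 ± 0.11 with an adjusted p of 0.188 by limma, and without exercise library 1 it rose by 0.58 with an adjusted p of 0.029. After quantile normalization the median of the list was 0.09. Ribosomal protein genes have many processed pseudogenes, and how the authors treated reads that match several copies is not given in the sources used here.

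Among the genes with lower values in the combination, Ctxn1 had the smallest p. Ctxn1 (chromosome 8, 4257646 to 4259274) encodes cortexin 1, a small membrane protein first described in the cortex of the rat brain. It had 31.78, 25.25, 35.6 and 24.8 FPKM in the combination, against 48.03, 49.82, 58.48 and 48.14 FPKM in exercise. The groups were well separated, with a log2 fold change of -0.79 ± 0.12 and an adjusted p of 0.0561 by limma. Ctxn1 fell by 0.82 without exercise library 1, with an adjusted p of 0.029. Maml3 (chromosome 3, 51687320 to 52105319), a Mastermind coactivator of Notch signalling, had 4.24, 3.8, 4.19 and 4.25 FPKM in the combination, against 5.58, 7.45, 6.76 and 6.94 FPKM in exercise. Its difference was -0.58 ± 0.11 with an adjusted p of 0.0995 by limma, and it fell past the threshold without exercise library 1 (adjusted p 0.029).

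Pld1, a phospholipase that makes phosphatidic acid, averaged 4.78 ± 1.1 FPKM in the combination and 7.96 ± 0.46 FPKM in exercise (SD, n = 4 each; adjusted p 0.155 by limma). Smaller but tight differences were seen in Ddx6, an RNA helicase of mRNA decay, with 19.79, 19.61, 19.96 and 20.21 FPKM in the combination, against 23.46, 23.83, 25.42 and 26.58 FPKM in exercise. Its log2 fold change was -0.30 ± 0.06 with an adjusted p of 0.159 by limma. Wasf2, which drives actin branching, had 60.68, 55.44, 59.33 and 61.52 FPKM in the combination, against 65.32, 81.32, 80.02 and 79.15 FPKM in exercise. Exercise library 1 lay next to the combination libraries rather than with its own group. Ctnnd1, a catenin of cell junctions, and Helz, an RNA helicase, differed by -0.32 ± 0.07 and -0.39 ± 0.09, each with an adjusted p of 0.188 by limma. The zinc finger gene Zfp532 differed by -0.55 ± 0.12, also with an adjusted p of 0.188 by limma. When exercise library 1 was left out these 6 genes, Pld1, Ddx6, Wasf2, Ctnnd1, Helz and Zfp532, fell past the threshold, with adjusted p-values of 0.029 to 0.0364.

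Stromal and matrix genes were lower on average. Cilp (chromosome 9, 65265180 to 65280614), a secreted matrix protein of cartilage and fibroblasts, had 5.73, 0.39, 4.11 and 5.66 FPKM in the combination, against 9.22, 33.42, 20.31 and 18.02 FPKM in exercise. The groups did not overlap, with a log2 fold change of -2.20 ± 0.50 and an adjusted p of 0.188 by limma. Nrep, a regulator of TGF-beta signalling and matrix formation, had 9.24, 2.66, 7.11 and 8.55 FPKM in the combination, against 12.23, 22.92, 24.38 and 21.38 FPKM in exercise (adjusted p 0.188). In both genes combination library 2 was the lowest and exercise library 1 the lowest of its group. Cilp fell by 2.51 and Nrep by 1.70 without exercise library 1, with adjusted p-values of 0.0334 and 0.0315 by limma.

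Of 25 tested fibroblast and matrix genes 22 were below 0, with a median of -0.46. In 5 the unadjusted p was below 0.05, all lower, beside a share of 6.93% over all genes. The groups did not overlap in 1 of the 25, which was lower, beside a share of 3.73% over all genes. The matricellular protein gene Thbs2 had 3.94, 0.59, 1.86 and 1.3 FPKM in the combination, against 4.45, 7.59, 6.34 and 8.29 FPKM in exercise, a difference of -1.49 ± 0.37 (adjusted p 0.197 by limma). Pdgfra, a growth factor receptor of fibroblasts, had 9.72, 6.13, 5.9 and 7.05 FPKM in the combination, against 8.22, 16.41, 12.77 and 14.99 FPKM in exercise. It was the 1 of 25 that fell past the threshold without exercise library 1, beside 0.362% of all genes. Pdgfra fell there by 0.96 with an adjusted p of 0.0364 by limma. Col1a1, the main collagen of fibroblasts, had 135.56, 25.15, 92.97 and 106.57 FPKM in the combination, against 128.15, 222.62, 140.49 and 166.69 FPKM in exercise, with an adjusted p of 0.424 by limma. The summed FPKM of the list was 2684.27 to 5008.28 in the combination and 3841.14 to 6129.05 in exercise.

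Of 18 tested genes of basement membranes and integrins, 17 were below 0, with a median of -0.30. In 7 the groups did not overlap, all lower, beside a share of 3.73% over all genes. Lamb1, a laminin chain, had 78.01, 76.38, 98.67 and 80.34 FPKM in the combination, against 109.68, 118.49, 109.43 and 107.07 FPKM in exercise, a difference of -0.42 ± 0.10 (adjusted p 0.188 by limma). Lamc1, the laminin chain that pairs with it, had 66.17, 49.46, 54.91 and 52.99 FPKM in the combination, against 60.34, 98.68, 92.41 and 90.61 FPKM in exercise. Exercise library 1 alone lay within the combination values. Without it 2 of the 18 fell past the threshold, beside 0.362% of all genes. Lamc1 fell by 0.75 and Itga10, a collagen-binding integrin, fell by 0.94, with adjusted p-values of 0.029 and 0.0349 by limma. For Itga10 too, exercise library 1 was the lowest of its group, at 2.33 FPKM, equal to the highest combination library.

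Endothelial and pericyte genes were below 0 in all 16 tested members, with a median of -0.34. In 5 the groups did not overlap, and 3 had an unadjusted p below 0.05. The shares of lower genes over all genes were 3.73% and 6.93%. Flt1, a VEGF receptor, had 5.5, 2.5, 4.96 and 4.25 FPKM in the combination, against 6.32, 9.87, 9.5 and 8.45 FPKM in exercise, a difference of -0.87 ± 0.23 (adjusted p 0.199 by limma). Cdh5, the cadherin of endothelial junctions, had 11.82, 5.75, 7.58 and 9.72 FPKM in the combination, against 12.11, 17.11, 14.67 and 14.55 FPKM in exercise (adjusted p 0.315). Pecam1, the endothelial adhesion molecule CD31, averaged 8.81 ± 1.9 FPKM in the combination and 12.3 ± 1.8 FPKM in exercise (SD, n = 4 each; adjusted p 0.541 by limma). Combination library 2 was the lowest for Flt1, Cdh5, Col1a1 and Thbs2. Red blood cell genes also ran lower, with a median of -1.04 over 5 tested members, but the summed FPKM of the 8 members in the files overlapped, at 68.92 to 323.68 in the combination and 164.45 to 792.57 in exercise. Blood content of the tumours was not tested as a part of the endothelial values.

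Leaving out exercise library 1 brought 8 of 27 cell cycle genes past the threshold, all higher, beside 1.19% of all genes. Where that library was the highest of its group, leaving it out by itself raises the difference and narrows the spread. The adjusted p-values of that fit may therefore be too small. Smc4 (chromosome 3, 69004738 to 69034623), a condensin subunit that packs mitotic chromosomes, had 65.74, 79.72, 89.6 and 84.41 FPKM in the combination, against 89.81, 29.4, 29.75 and 43.34 FPKM in exercise. Exercise library 1 was the highest of the 8 while the other 3 exercise libraries were the lowest. With all libraries the log2 fold change was 0.87 ± 0.27 with an adjusted p of 0.219 by limma; without exercise library 1 Smc4 rose by 1.22 ± 0.16, with an adjusted p of 0.0252, the smallest of that fit.

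Mki67, the proliferation marker Ki-67, had 42.03, 44.56, 49.29 and 53.55 FPKM in the combination, against 63.85, 18.44, 17.35 and 31.05 FPKM in exercise. Its difference was 0.71 ± 0.29 with all libraries (adjusted p 0.309 by limma) and 1.10 ± 0.18 without exercise library 1 (adjusted p 0.029). Cenpe, a kinetochore motor, and Cenpf, a kinetochore protein, showed the same arrangement and rose by 1.08 and 0.83 without that library, each with an adjusted p of 0.029 by limma. With all libraries 17 of the 27 were above 0 and 10 below 0, and 0 passed. The list medians were 0.14 with exercise library 1 and 0.33 without it. The 8 were Mki67, Cenpe, Cenpf, Smc4 and its partner Smc2, the spindle genes Kif11 and Nusap1, and Ndc80 of the kinetochore. In the tumours without exercise, Mki67 averaged 30.2 ± 3.6 FPKM with the antibody and 54.2 ± 9.2 FPKM in control (SD, n = 4 each).

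**Figure D4:**
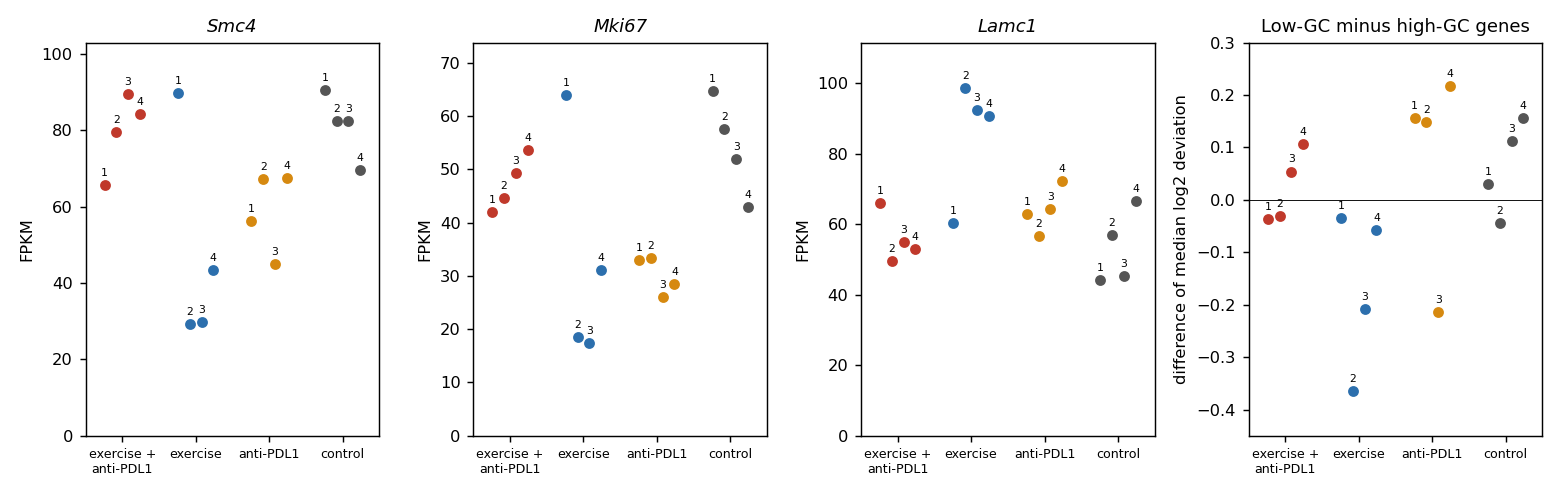
FPKM of Smc4, Mki67 and Lamc1 in all 16 libraries, and, on the right, the median log2 deviation from the mean of each gene of the 1170 genes with the lowest GC content minus that of the 1170 with the highest; numbers are replicate numbers. Exercise library 1 is apart from exercise libraries 2, 3 and 4 in the 3 genes, and exercise libraries 2 and 3 have the lowest GC differences of the 8 libraries compared, at -0.37 and -0.21.

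The genes that passed without exercise library 1 also differed in base composition. The 141 that rose had a median transcript GC content of 40.8%, the 43 that fell 51.2%, and all genes tested 49.8%. The difference between genes of low and high GC content was -0.04, -0.03, 0.05 and 0.11 in combination libraries 1 to 4, against -0.03, -0.37, -0.21 and -0.06 in exercise libraries 1 to 4, on the log2 scale. Exercise libraries 2 and 3, which had the lowest Smc4 and Mki67, had the lowest values. With the GC trend of each library removed, a step added after the data had been seen, 142 genes passed without exercise library 1. Of these 99 were higher and 43 lower, against 141 and 43 with the trend kept. Of the 142, 116 were among the 184. Among 323 entries named Zfp, zinc finger genes with a median GC content of 43.7%, 19 rose (5.88%, beside 1.19% of all genes) and 1 fell without exercise library 1; this group was picked after its values were seen. The part of base composition in these results was not tested further.

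The other genes with the largest changes in that fit were of mixed kinds. Esf1, a nucleolar protein of ribosome synthesis, had 23.06, 23.75, 30.53 and 26.79 FPKM in the combination, against 19.74, 8.27, 11.36 and 14.97 FPKM in exercise, and rose by 1.14 with an adjusted p of 0.029 by limma. The groups did not overlap even with exercise library 1 included. The entries Gm20498, Gm13212 and Gm14325 rose by 1.61, 1.09 and 1.08. Plekhb1, a membrane-associated protein, fell by 1.18, Adamts12, a secreted metalloprotease, by 0.81, Klf11, a zinc finger transcription factor, by 0.77, Gata2, a transcription factor of endothelial and blood cells, by 0.76, and the entry Gm42226 by 0.77. Their adjusted p-values were 0.029 to 0.0469 by limma.

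The same antibody was also given without exercise, and that comparison, anti-PDL1 against control, shares no library with the combination against exercise. In it 19 genes were higher (0.16%) and 11 lower (0.0927%) at an adjusted p below 0.05 by limma. All 19 of the higher genes were above 0 in the combination against exercise. Of these 13 had an unadjusted p below 0.05 and 9 no overlap between the groups, beside 6.7% and 3.21% of all genes. Their median log2 fold change was 0.65 with exercise and 1.22 without it. Of the 11 lower genes 10 were below 0, 3 with an unadjusted p below 0.05, beside 6.93% of all genes. The medians of the lower genes were -0.18 with exercise and -0.80 without it. Genes chosen for passing in anti-PDL1 against control have large values there by that choice.

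Psmb9 differed by 1.38 ± 0.21 with exercise and 1.71 ± 0.21 without it, H2-K1 by 0.85 ± 0.17 and 0.95 ± 0.17, and Ctxn1 by -0.79 ± 0.12 and -0.99 ± 0.12. For the interferon gamma list the medians were 0.91 with exercise and 1.68 without it, for the type I interferon list 0.29 and 1.23, and for the cytotoxic lymphocyte list 0.39 and 1.87. The medians with exercise were 0.62, 0.02 and 0.25 for these 3 lists when exercise library 1 was left out. Trib3 had the reverse order, at 1.19 ± 0.22 with exercise and 0.38 ± 0.22 without it, and so did Angptl6, at 1.37 ± 0.25 and 0.45 ± 0.25. The test of the interaction was run on single genes and not on list medians, and none of the genes named here passed it. With all libraries 0 of 11868 genes (0%) passed it by limma, with a smallest adjusted p of 0.364. At an unadjusted p below 0.05, 948 interactions were above 0 (7.99%) and 606 below 0 (5.11%). Those below 0 included 1 of 24 interferon gamma genes, 2 of 23 type I interferon genes and 5 of 12 cytotoxic lymphocyte genes. These lists held 0 above 0 at that p.

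**Figure D5:**
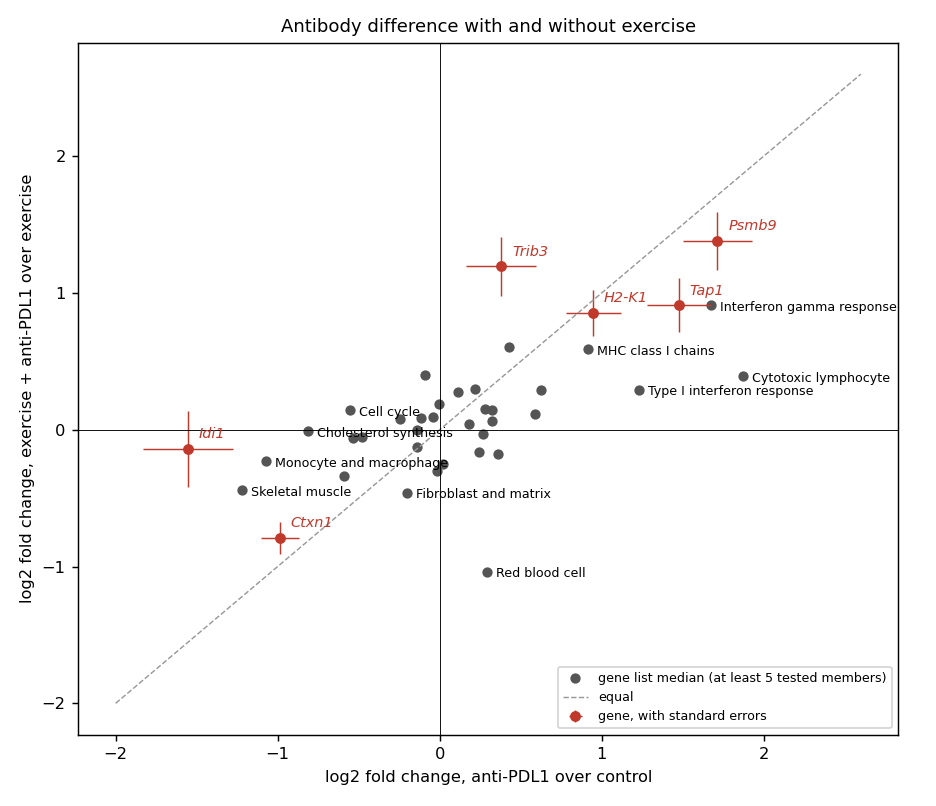
Log2 fold change of the combination over exercise against that of anti-PDL1 over control, for the medians of gene lists with at least 5 tested members (grey) and for 6 genes with their standard errors (red); the dashed line marks equal values. The difference between the axes is -0.34 for Psmb9, -0.57 for Tap1, -0.09 for H2-K1 and 0.19 for Ctxn1, the interferon and cytotoxic lists lie below it at 1.23 to 1.87 without exercise, and Trib3 and Idi1 lie above it.

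Without exercise library 1 the interaction passed for 195 genes above 0 (1.64%) and 28 below 0 (0.236%). Of the 27 cell cycle genes 16 passed, and of 24 cholesterol synthesis genes 13, all above 0. Below 0 passed 3 of 18 genes of basement membranes and integrins, namely Lamc1, Itga10 and Hspg2, a heparan sulphate proteoglycan, 2 of 14 fatty acid oxidation genes and 1 of 25 fibroblast and matrix genes. The interaction of Lamc1 was -1.02 and that of Itga10 was -1.19, with adjusted p-values of 0.0201 and 0.0418 by limma. With library weights in place of leaving the library out, 0 interactions passed. For Mki67 the interaction was 1.91, from differences of 1.10 with exercise and -0.82 without it, with an adjusted p of 0.00692 by limma. Idi1, an isomerase of the mevalonate pathway, had 3.99, 4.41, 4.04 and 5.89 FPKM in the combination, against 9.36, 3.83, 3.9 and 4.63 FPKM in exercise. Without exercise it averaged 2.08 ± 0.98 FPKM with the antibody and 8.08 ± 2.6 FPKM in control (SD, n = 4 each). Its interaction was 1.67 with an adjusted p of 0.0296 by limma. Exercise library 1 was the highest of its group, and with it included the adjusted p of the interaction was 0.364.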

How the data were processed

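RNA was measured by RNA-seq in 16 libraries, 4 in each of 4 groups, from total RNA isolated with Trizol per the labels. The authors deposited FPKM per gene, 1 column per library. The submitters' processing notes name HISAT, Bowtie2 and build GRCm38.p6 without versions or roles. The kit, the FPKM program and the read depth were not given in the sources used here. FPKM were used as log2(FPKM + 1), which understates the change of low genes. A gene was tested if it reached 1 FPKM in 4 or more of the 16 libraries, which left 11868 of 18480. A limma model (version 3.58.1 in R 4.3.3, moderated with the trend and robust options) was fitted to all libraries with group as its only term, so that the 4 groups shared an estimate of the spread. The combination minus exercise, anti-PDL1 minus control and their difference were its contrasts, each adjusted over all genes by Benjamini-Hochberg at 0.05. The fit was tested on simulated data with independent normal noise for each gene. The simulation held no deviating library and no GC trend, so it does not check the fit for these features of the data.

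The design named limma for normalized values, which these are. Fewer than 5 genes passed in each direction, so by the rule the genes named are the 10 with the smallest p per direction, a panel of 35 genes, and members of each list described, drawn from the 4 with its smallest p-values; a few list members outside it were named after their values were seen. Up to 10 genes per direction with the largest changes without exercise library 1 were added after their values were seen. Of the panel, 2 genes are not reported here. The groups, the 39 gene lists and the panel were chosen with earlier results of these data known. RefSeq's annotation of GRCm38.p6, the source of coordinates and promoter windows, held the symbols of 17958 entries. On 22 entries the symbol reads as a date and was left as it is. GC content came from the longest transcript of each gene in the GENCODE M21 annotation, found for 98.6% of genes. Figures were drawn with matplotlib 3.10.9 under Python 3.11.15.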

Additional observations from a re-analysis of the deposited data

Results flagged for a closer look

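In 6 of 206 groups of 4 libraries checked among the named genes, 1 library lay far from the other 3 by Dixon's test at the 95% level; chance flags about 1 group in 20. Psmb9 was at 23.82 FPKM in exercise library 3, against 13.68 to 14.99 FPKM in the other exercise libraries. Maml3 was at 3.8 FPKM in combination library 2, against 4.19 to 4.25 FPKM in the other combination libraries. Arg1 was at 192.48 FPKM in combination library 3, against 125.6 to 132.12 FPKM. Cldn5, a tight junction gene of endothelium, was at 3.14 FPKM in combination library 1, against 1.69 to 1.79 FPKM. Mmp8, a neutrophil collagenase, was at 1.28 FPKM in exercise library 3, against 0.19 to 0.24 FPKM in the other exercise libraries. Wasf2 was at 65.32 FPKM in exercise library 1, against 79.15 to 81.32 FPKM in the other exercise libraries.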

How the results depend on the processing

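The count of genes past the threshold for the combination against exercise, 0 with all libraries, depended on exercise library 1. Leaving out each of the 8 libraries compared, or each of the other 8, in turn gave 0 to 184 genes, with 184 without exercise library 1 and at most 7 otherwise; for the interaction the range was 0 to 223. Library weights, which gave exercise library 1 a weight of 0.507 and the other exercise libraries 1.31 to 2.14, gave 222 genes, 149 of them among the 184. A mean of at least 5 FPKM, quantile normalization and centring on library medians gave 2 genes each, Ctxn1 and Psmb9 in all 3, and a fit to the 2 groups alone gave 1, Angptl6. Removing the GC trend gave 3 genes, and 142 without exercise library 1. In the latter the interaction gave 193, with 139 above 0 and 54 below 0, against 195 and 28 with the trend kept. Both fits were chosen after seeing the data. No filter on low values, a pseudocount of 0.1 and limma without its trend and robust settings gave 0. Same-numbered libraries did not deviate together (r of -0.62, -0.20, -0.22 and 0.19). These 4 values cannot exclude that the numbers pair libraries, and a fit with the replicate number as a block gave 0 genes. Over 103 named genes and 1935 gene and setting pairs the sign was kept in 1931; Idi1, at -0.14, was 0.023 with library weights and ranged from -0.25 to 0.12 with each library left out in turn, and Car9 from -0.58 to 0.30. Psmb9 and Ctxn1 kept their sign in all. The median of 38 lists moved by more than a spread in 17 of 646 settings. With 4 libraries a group and no read counts, the precision of low genes is unknown.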

Other observations

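The medians of gene groups of metabolism lay near 0 between the combination and exercise. Over 31 oxidative phosphorylation subunits the median log2 fold change was 0.00, over 24 cholesterol synthesis genes -0.01, over 12 fatty acid synthesis genes -0.05 and over 24 DNA replication genes -0.06, and none of these lists held a gene past the threshold with all libraries. Glycolysis genes had a median of 0.15, with 16 of 18 above 0, and hypoxia genes a median of 0.12 over 19. Several of these medians rested on exercise library 1: without it they were 0.18 for cholesterol synthesis, 0.05 for fatty acid synthesis, 0.09 for DNA replication, 0.02 for oxidative phosphorylation, 0.01 for glycolysis and -0.08 for hypoxia. Car9, a carbonic anhydrase induced by hypoxia, had 24.53, 12.7, 17.35 and 3.94 FPKM in the combination, against 5.67, 16.9, 28.42 and 13.96 FPKM in exercise.

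Some immune genes below the filter were also set apart in their values. Ido1, a tryptophan-degrading enzyme induced by interferon gamma, stood at 0.84, 0.43, 0.37 and 1.26 FPKM in the combination, against 0.1, 0, 0.23 and 0.27 FPKM in exercise. Pdcd1lg2, which encodes PD-L2, the other ligand of PD-1, stood at 0.19, 0.2, 0.82 and 0.56 FPKM in the combination, against 0.04, 0.13, 0.1 and 0.09 FPKM in exercise. In neither gene did the groups overlap, and neither was tested. Skeletal muscle genes summed to 3.59 to 13.39 FPKM in the combination and 7.33 to 22.12 FPKM in exercise over the 16 members in the files, 5 of which were tested. Krt14, a keratin of basal skin cells, had 85.13, 26.11, 29.57 and 54.34 FPKM in the combination, against 34.12, 58.39, 57.61 and 71.92 FPKM in exercise. Among 16 heat shock protein genes the median was 0.04, and 0.01 without exercise library 1; among 20 immediate early genes it was 0.06, and -0.15 without that library.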
